A study of Equus caballus with 14 samples.

Results

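Chemokines and chemokine receptors were read in gluteus medius muscle of horses with polysaccharide storage myopathy (PSSM), a disease in which muscle fibers fill with abnormal glycogen-like material. Members were all probes whose gene symbol, whatever its case, is that of a CC, CXC, CX3C or XC chemokine or receptor (CCL, CCR, CCRL, CXCL, CXCR, CX3C, XCL, XCR), or is MIF, PF4, PPBP or PROK2. The symbols of equine probes came from the probe list of the study and those of mouse probes from the platform annotation. This rule found 57 probes for 48 gene symbols among 24493 probes. Of these, 9 were among the 384 equine probes, and 48 (46 symbols) were among the 24109 mouse probes printed beside them, of which 13430 carry a symbol. No probe carried the symbol PF4. The platform annotation gives no symbol for the equine CXCR4 and MIF probes and a locus name for CCL4, so their names rest on the probe list.

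The study set muscle RNA of 7 PSSM horses (horses 5, 12, 32, 38, 42, 44 and 54) against 1 pool of RNA from 6 control muscles of sound horses. All animals were adult horses of the Norman breed. Each PSSM horse was measured on 2 spotted two-color microarrays, once with its RNA labelled in Cy3 and once in Cy5, which gives 14 microarrays. According to the study's methods, PSSM was diagnosed on biopsies by amylase-resistant material in the fibers, and horses were genotyped for a mutation of the glycogen synthase gene GYS1, which the PSSM horses carried and the controls did not. The labels name a horse 5 that the study's table of genotypes does not list, so its genotype is not known here. The pool is 1 control sample, so differences between control horses enter no error given below. The biopsies were whole muscle, so that fewer cells of a type and less RNA per cell cannot be told apart.

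Chemokines are small secreted proteins that guide leukocytes, and they are grouped as CC, CXC, CX3C and XC ligands by the spacing of their first cysteines. Their receptors span the membrane and signal through inhibitory G proteins, phospholipase C, kinases and small GTPases. In injured or inflamed muscle, they are known for drawing in neutrophils, monocytes and lymphocytes and for guiding muscle precursor cells. MIF (macrophage migration inhibitory factor) and PROK2 (prokineticin 2) are no chemokines by structure, and both attract leukocytes.

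Values are log2 ratios of PSSM muscle over the control pool, averaged over the 2 microarrays of a horse, and errors are SD between horses. A two-color ratio gives no level, so different probes were not compared in abundance. Each microarray had values for 7674 to 17071 of the probes. The Cy5 microarray of horse 54 stood apart, with a median log2 ratio of -0.39 over the equine probes, whereas the medians of the other 13 lay between -0.26 and -0.02. All 8 equine probes of muscle fiber markers had values from 7 horses, as had 347 of the 361 tested equine probes. The presence of these values therefore does not check the tissue.

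The chemokine probes gave sparser values than the rest of the equine probes. Of 126 possible equine member values, 94 (74.6%) were present, against 92.6% over all equine probes. In some values, the linear PSSM to control ratio was a whole number (within 0.0002) when multiplied by 10, and this was read as a control signal at its lowest level. The reading is an inference, since no source states a limit on low signals, and every count of such values rests on it. On this reading, such a ratio is a lower bound where PSSM muscle was above the control and bounds nothing where it is 1. This was found in 11 of the 94 values (11.7%) of 4 equine members, against 2.33% of all equine values. CXCR4 held 5 of them, CCR2 held 4, and CCL3 and CXCL2 held 1 each.

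**Figure D1:**
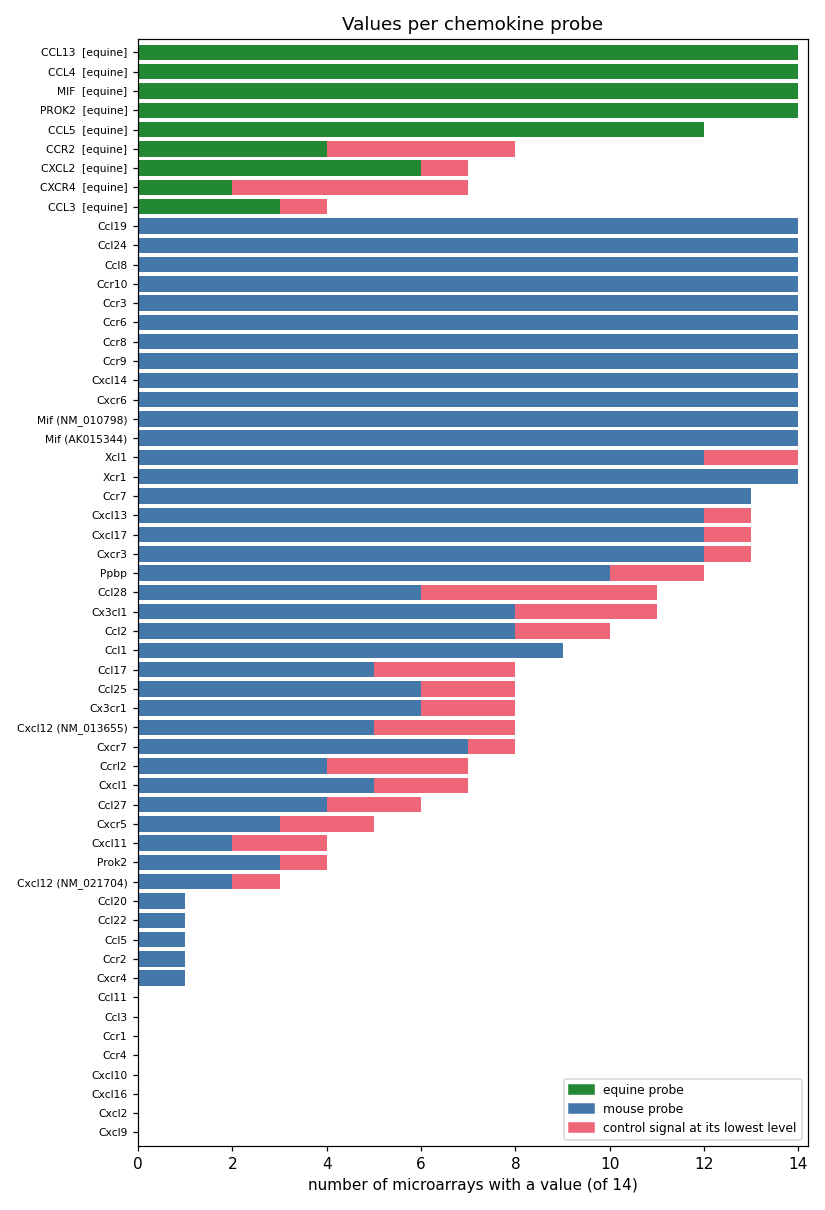
Number of microarrays (of 14) with a value for each of the 57 chemokine probes, with equine probes in green and mouse probes in blue. The red end of a bar counts values whose control signal lay at its lowest. Of the equine probes, CCL13, CCL4, MIF and PROK2 had all 14 values and CCL3 had 4; 8 mouse probes had none.

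Some ratios were repeated over many probes of a microarray. This was read as a sign of low signals, which is again an inference, since the values are ratios without intensities. Equine CCR2 had 8 values, and each was held to 4 decimals by at least 10 probes of its microarray. The same applied to all 4 values of CCL3, 6 of 7 of CXCL2, 8 of 12 of CCL5, 5 of 14 of CCL13 and 4 of 7 of CXCR4. No value of MIF, PROK2 or CCL4 was of this kind. Over all equine probes, the share of such values was 12.6%, and over the equine members it was 37.2%.

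Among the 9 equine members, 7 had values from at least 5 horses and were tested. MIF was the only one to pass, with lower values in PSSM muscle (adjusted p under 0.05, limma over all 361 tested equine probes). Against this 1 of 7, 24.4% of all tested equine probes passed, 19.9% lower and 4.43% higher. The median of the 7 means was 0.13, and the median over all tested equine probes was -0.08. The methods' t-test, wherever named, was computed here on the horse values of probes with values from at least 5 horses. In it no equine member passed after adjustment, against 18.6% of the equine probes. The adjusted p was 0.15 for CCL13 and 0.051 for MIF. The study's own list of genes at p under 0.05 holds CCL13 and CXCR4 as higher and MIF as lower. Its quantitative RT-PCR also gave CXCR4 as higher. CXCR4 had values from 4 horses and was not tested here. Of the 7 means, 5 lay above 0, against 41.6% over all tested equine probes.

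Equine CCL13 (probe ECA251188_176), a CC ligand for monocytes and eosinophils in humans, had all 14 values and none with the control at its lowest level. Its log2 ratio was 0.25 in horse 5, 0.09 in horse 12, 0.07 in horse 32, 0.07 in horse 38, 0.36 in horse 42, 0.75 in horse 44 and 0.02 in horse 54. All 7 horses lay above the pool, horse 44 by far the most, and 4 of them by under 0.10. The mean was 0.23 ± 0.26 (SD, n = 7), a ratio of 1.17, and 0.14 without horse 44. It did not pass the test (adjusted p = 0.14, limma), and an exact sign-flip test (two-sided) gave the smallest p that 7 horses allow, 0.0156. A single sign in every horse was found in 22.5% of the equine probes with values from all horses, and among the 4 members with all horses CCL13 alone had it. Centring every microarray on its equine probes moved the median of the tested equine probes by 0.12, and CCL13 then passed at 0.35 (adjusted p = 0.032, limma).

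Equine CCL4 (CD466525_608), a CC ligand that attracts monocytes and T cells, also had 14 values with the control above its lowest level. The horse values were -0.06, 0.03, -0.03, 0.23, 0.00, 0.38 and -0.18 in horses 5, 12, 32, 38, 42, 44 and 54. They lay on both sides of 0, with horse 44 highest and horse 54 lowest. The mean was 0.05 ± 0.19 (n = 7, adjusted p = 0.69, limma).

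Equine CCL5 (DN507690_582), a CC ligand that T cells release, had 12 values from all horses but horse 32. It had a log2 ratio of 0.24 in horse 5, 0.23 in horse 12, -0.03 in horse 38, -0.02 in horse 42, 0.84 in horse 44 and -0.50 in horse 54. The spread between horses was wider than the mean, 0.13 ± 0.44 (n = 6, adjusted p = 0.60, limma). Without horse 44 the sign turned, to -0.02.

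Equine CCL3 (BM735335_513), the companion of CCL4 in macrophages, had 1 value in each of 4 horses and was not tested. The log2 ratio was -0.37 in horse 5, -0.52 in horse 12 and -0.46 in horse 32, all from Cy3 microarrays. The value of horse 44 came from its Cy5 microarray and was 0.00, with the control at its lowest level. These 3 lower values and the 1 equal value therefore also differed in dye. The mean was -0.34 ± 0.23 (n = 4).

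Equine CXCL2 (BM735057_461), a neutrophil attractant that signals through CXCR2, had 7 values from 5 horses, of which 1, in horse 44, had the control at its lowest level. Its log2 ratio was 0.22 in horse 5, -0.31 in horse 12, -0.52 in horse 42, 0.20 in horse 44 and -1.18 in horse 54. Horses 5 and 44, the 2 with values on both microarrays, lay above the pool, and the 3 with a Cy3 value alone lay below it. The mean was -0.32 ± 0.58 (n = 5, adjusted p = 0.32, limma), and the smallest p of the sign-flip test is 0.0625 with 5 horses. The mean was -0.11 without horse 54 and -0.02 with single microarrays fitted with a dye term and a block for the horse.

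Equine CCR2 (CD466909_423), the receptor by which monocytes follow CCL2, had 8 values from 6 horses. The ratios (log2) were 0.14 in horse 5, 0.32 in horse 12, 0.14 in horse 38, 0.00 in horse 42, 1.14 in horse 44 and -0.06 in horse 54. All values of horses 38, 42 and 44 had the control at its lowest level, those of horse 42 at a ratio of 1. Horse 44 lay far above the other 5, with a single value from its Cy5 microarray. The mean was 0.28 ± 0.44 (n = 6, adjusted p = 0.25, limma), and 4 horses lay above the pool, 1 below it and 1 at it. Without horse 44 the mean was 0.11.

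Equine CXCR4 (CD466324_700), the receptor of CXCL12 on leukocytes and muscle precursor cells, had the highest mean of the equine members and too few horses for a test. On the log2 scale, PSSM over control was 0.62 in horse 5, 0.75 in horse 12, 1.63 in horse 44 and 0.00 in horse 54. Of its 7 values, 5 had the lowest control signal, at least 1 in each of these 4 horses. On single microarrays, horse 5 had 0.26 with the control at its lowest level and 0.98 above it, and horse 44 had 0.85 and 2.41, both with the control at its lowest level. The mean was 0.75 ± 0.67 (n = 4), a ratio of 1.68 that mixes measured ratios, lower bounds and the ratio of 1 in horse 54, and without horse 44 it was 0.46. Horses 32, 38 and 42 gave no value.

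**Figure D2:**
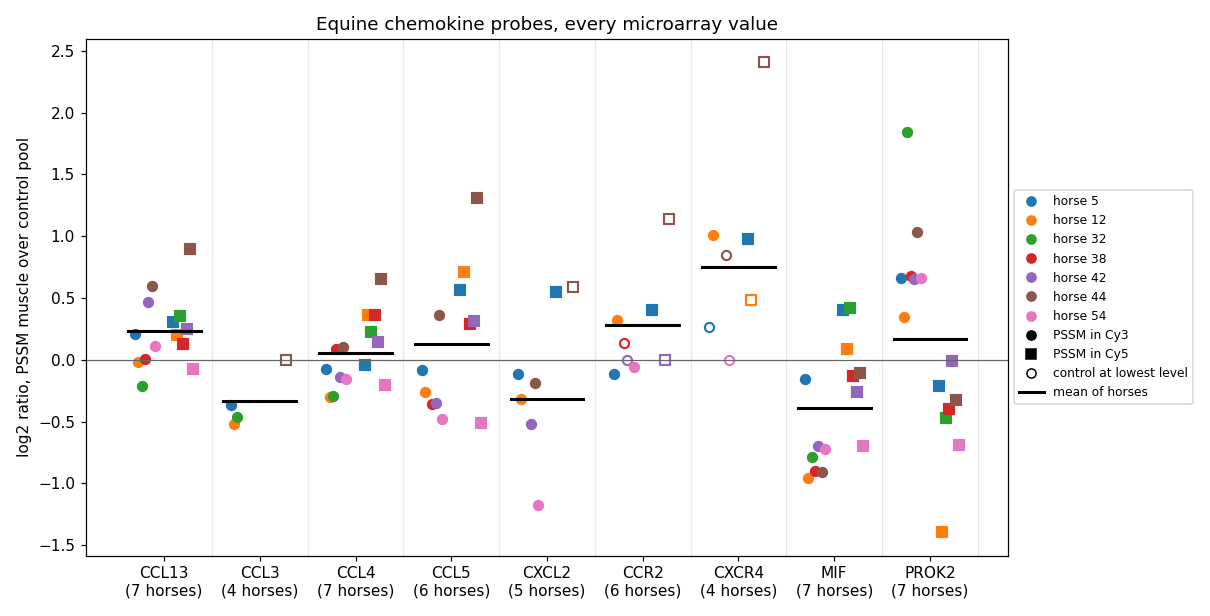
Log2 ratio of PSSM muscle over the control pool (vertical axis) on every microarray for the 9 equine chemokine probes, with circles for PSSM in Cy3, squares for PSSM in Cy5, 1 color per horse and a black line at the mean over horses. Open symbols have the control at its lowest level and are 5 of 7 for CXCR4 and 4 of 8 for CCR2. Circles and squares of PROK2 lie apart, above and below 0.

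Equine MIF (CX599697_441), a cytokine that binds CD74 and the chemokine receptors CXCR2 and CXCR4, had 14 values with the control above its lowest level. Its log2 ratio was 0.12 in horse 5, -0.43 in horse 12, -0.18 in horse 32, -0.51 in horse 38, -0.48 in horse 42, -0.51 in horse 44 and -0.71 in horse 54. It was lower than the pool in 6 of 7 horses, all but horse 5. The mean was -0.39 ± 0.27 (n = 7, adjusted p = 0.031, limma), a control to PSSM ratio of 1.31, and the exact sign-flip test gave p = 0.031. With PSSM in Cy3 alone the mean was -0.73 and MIF passed, and with PSSM in Cy5 alone it was -0.04 and did not (adjusted p = 0.84, limma). It was also lost without horse 12, 38, 42, 44 or 54 (adjusted p = 0.068 to 0.080, limma).

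Equine PROK2 (CX600135_391), which attracts monocytes and promotes vessel growth, had 14 values with the control above its lowest level. Horses 5, 12, 32, 38, 42, 44 and 54 gave 0.23, -0.52, 0.69, 0.14, 0.32, 0.35 and -0.01. The 2 orientations gave separate sets of values. With PSSM in Cy3 all 7 horses lay above 0, from 0.35 to 1.84, and with PSSM in Cy5 all 7 lay below it, from -1.39 to -0.01. The mean was 0.17 ± 0.37 (n = 7, adjusted p = 0.39, limma), and each orientation alone passed the test in its own direction.

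The dye of the PSSM RNA moved several members. The dye effect was taken within each horse, as its log2 ratio with PSSM in Cy5 minus that with PSSM in Cy3. It passed the test in 4 of the 5 equine members with both microarrays in at least 5 horses, against 55.0% of all equine probes tested for it (28.7% higher with PSSM in Cy5). The difference was -1.34 ± 0.55 for PROK2, 0.69 ± 0.40 for MIF, 0.64 ± 0.36 for CCL5 (n = 6) and 0.32 ± 0.27 for CCL4 (adjusted p = 0.00031 to 0.042, limma, n = 7 unless given). For CCL13 it was 0.13 ± 0.27 (adjusted p = 0.38, limma). The microarrays of the 2 orientations did not overlap at all in PROK2 alone of these 5, against 12.6% of all equine probes tested for a dye effect.

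Horse 44 had the highest value in 4 of the 7 tested equine members (CCL13, CCL4, CCL5 and CCR2), against 25.1% of all tested equine probes with a value from this horse. It was also the highest of the 4 horses in CXCR4. The study's table lists horse 44 as homozygous for the GYS1 mutation, and so lists another animal, which has no sample label here. It may or may not be horse 5, so no comparison by genotype was made. Horse 54 had the lowest value in 6 of the 7, all but PROK2, against 29.0% of all tested equine probes. When its Cy5 microarray was left out, it was lowest in 5 of 7, against 23.1%. The mouse probes did not show the same order. Among the 28 tested mouse members with its value, horse 44 was highest in 4 and lowest in 6, against 21.7% and 20.9% of such mouse probes. Horse 54 was highest in 7 and lowest in 7 of 30, against 20.6% and 25.9%.

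Of the 48 mouse members, 30 had values from at least 5 horses, 10 had values from 1 to 4 horses and 8 had none. Horse RNA on mouse probes is a cross-species hybridization, so an empty cell says nothing of the gene in horse muscle. Over these probes, 382 of 672 possible values (56.8%) were present, against 52.3% over all mouse probes. The control was at its lowest level in 41 of them (10.7%), spread over 20 probes, against 9.16% over all mouse probes. At least 10 probes of the microarray shared the same value in 49.2% of the member values, against 49.7% over all mouse probes.

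The 14 mouse members with all 14 values were Ccl8, Ccl19, Ccl24, Cxcl14, Xcl1, both Mif probes, and the receptors Ccr3, Ccr6, Ccr8, Ccr9, Ccr10, Cxcr6 and Xcr1. The 8 without any value were the ligands Ccl3, Ccl11, Cxcl2, Cxcl9, Cxcl10 and Cxcl16 and the receptors Ccr1 and Ccr4. Among the 14 full probes, the control was at its lowest level in Xcl1 alone, in horses 32 and 38. Most such values lay in probes with fewer microarrays: Ccl28 had 5 among 11 values, and Ccl17, Ccrl2, Cx3cl1 and the Cxcl12 probe NM_013655_2615 had 3 each. Single values with PSSM at 0.01 of the control, the lowest ratio in the files, were the only ones of Ccl20 and Ccl22, and both came from the Cy5 microarray of horse 54 that stood apart.

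None of the 30 tested mouse members passed (limma, adjusted over all 13067 tested mouse probes, of which 1.81% passed, 1.36% lower and 0.452% higher). At an unadjusted p under 0.05 there were 4, Ccr7 and Cxcl1 lower and Ppbp and Ccl28 higher, against 19.1% of all tested mouse probes. The methods' t-test gave 0 after adjustment, against 0.574% of the mouse probes, and 3 before it. The means ran from -0.73 to 0.46, and 25 of 30 lay between -0.25 and 0.25. Their median was 0.09, and over all tested mouse probes it was -0.01.

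Mouse Ccr7 (NM_007719_1523), the receptor that leads lymphocytes and dendritic cells to lymph nodes, had the lowest mean. Its log2 ratio was 0.75 in horse 5, -0.53 in horse 12, -0.79 in horse 32, -1.18 in horse 38, -0.89 in horse 42, -1.09 in horse 44 and -1.38 in horse 54. Horse 5 lay apart above the pool, and the other 6 lay below it on both their microarrays where both had a value. The mean was -0.73 ± 0.71 (n = 7, adjusted p = 0.13, limma; exact sign-flip p = 0.047). Ccr7 passed without horse 5 (-0.98, adjusted p = 0.011, limma), with a dye term and a block for the horse (-0.68, adjusted p = 0.041) and on Cy3 microarrays alone (-0.82, adjusted p = 0.041). Mouse Ccl19, which encodes a ligand of this receptor, had a mean of 0.14 ± 0.25 (n = 7, adjusted p = 0.46, limma).

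Mouse Ppbp (NM_023785_929), a platelet CXC ligand for neutrophils, had 12 values, 2 of them, in horses 12 and 32, with the control at its lowest level. The horse values ran from -0.02 in horse 5 over a median of 0.39 to 0.81 in horse 54. All but horse 5 lay above the pool, and the mean was 0.42 ± 0.29 (n = 7, adjusted p = 0.085, limma). Ppbp passed with a dye term and a block for the horse (0.40, adjusted p = 0.040, limma), on Cy3 microarrays alone (adjusted p = 0.040) and with centring on equine probes (0.53, adjusted p = 0.041). Mouse Ccl28 (NM_020279_254), an epithelial CC ligand, had the highest mean, 0.46 ± 0.48 (n = 6, adjusted p = 0.21, limma), which was 0.06 without values at the lowest control level. Its values were -0.02, 0.73, 1.28, 0.20, 0.44 and 0.10 in horses 5, 12, 32, 42, 44 and 54, with the control at its lowest level in horses 12, 32, 42 and 44. Mouse Cxcl1 (NM_008176_565), a neutrophil attractant that shares CXCR2 with CXCL2, had a mean of -0.37 ± 0.37 (n = 6, adjusted p = 0.20, limma). It had 4 horses below the pool, horse 42 at it and horse 5 above. Of its 7 values, 2, in horses 5 and 42, had the control at its lowest level. All 7 were shared by at least 10 probes of their microarray. The mean was -0.51 without values at the lowest control level and -0.18 with a dye term and a block for the horse.

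The remaining mouse members at the ends of the order differed less from the pool. The Cxcl12 probe NM_013655_2615, for the ligand of CXCR4, had a mean of 0.27 ± 0.34 (n = 6, adjusted p = 0.30, limma), with the control at its lowest level in horses 38, 42 and 44. Xcl1, a ligand from T and natural killer cells, had 0.22 ± 0.32 (n = 7), and Ccl17, a ligand of CCR4, had 0.19 ± 0.55 (n = 5), with values from 0.87 in horse 12 to -0.47 in horse 44. Ccr3, the eosinophil receptor, had -0.15 ± 0.60, Ccr9, a receptor of gut-homing lymphocytes, had -0.14 ± 0.16, and Ccl1, the ligand of CCR8, had -0.10 ± 0.30 (n = 7 each). None of the latter 5 passed (adjusted p = 0.33 to 0.70, limma).

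**Figure D3:**
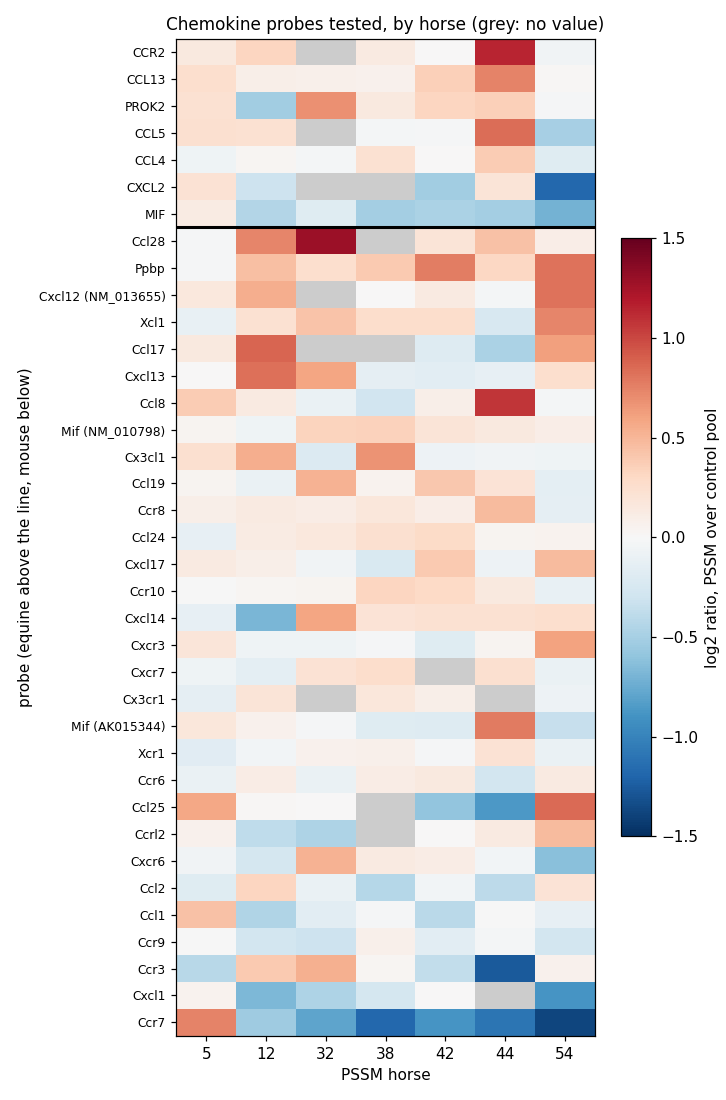
Log2 ratio of PSSM muscle over the control pool by horse (columns) for the 37 tested chemokine probes (rows, in descending order of the mean within 7 equine probes above the line and 30 mouse probes below it). Red is above and blue below the pool, the color scale ends at 1.5 in either direction, and grey is no value. Horse 44 is highest in 4 equine rows, horse 54 lowest in 6, and Ccr7 is blue in every horse but horse 5.

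Ligand and receptor pairs around CCR2, CXCR4 and CX3CR1 were read on mouse probes as well. Ccl2, which draws CCR2-bearing monocytes, had a mean of -0.09 ± 0.28 (n = 7), with 5 horses below the pool and the control at its lowest level in horses 32 and 54. Cx3cl1, the membrane-bound ligand of CX3CR1, had 0.15 ± 0.34 (n = 7), and its receptor Cx3cr1 had 0.05 ± 0.15 (n = 5). The second Cxcl12 probe (NM_021704_1261) had single values of -0.02 in horse 5, 1.49 in horse 12 and -0.44 in horse 54, the one of horse 12 with the control at its lowest level. Ccl2, Cx3cl1 and Cx3cr1 did not pass the test (adjusted p = 0.51 to 0.82, limma).

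Few equine members had a mouse probe that could be set beside them. Mouse Ccl3 and Cxcl2 had no value, and no mouse probe carried the symbols Ccl4 or Ccl13. Mouse Ccl5 had 1 value (-3.37 in horse 44, PSSM in Cy3), and mouse Ccr2 had 1 (0.28 in horse 5, PSSM in Cy5). On the same microarrays, equine CCL5 gave 0.36 and equine CCR2 gave 0.40. Mouse Cxcr4 had 1 value, -1.18, on the Cy5 microarray of horse 54 that stood apart. Equine CXCR4 had no value on that microarray. Its value of 0.00 in horse 54 came from the Cy3 microarray, with the control at its lowest level. Mouse Prok2 had 1 value in each of 4 horses, 0.23 in horse 5, 0.00 in horse 42 with the control at its lowest level, -1.27 in horse 44 and -0.39 in horse 54. All 4 came from Cy3 microarrays. On the Cy3 microarray of horse 44, equine PROK2 was above the pool, at 1.04, and mouse Prok2 below it. The equine mean of 0.35 in this horse also takes in -0.33 from the Cy5 microarray.

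The 3 MIF probes each had all 14 values and differed in direction. Mouse Mif NM_010798_481 had a mean of 0.16 ± 0.15 (n = 7, adjusted p = 0.29, limma; exact sign-flip p = 0.047), above the pool in 6 of 7 horses. Its 2 orientations lay far apart, at 1.47 with PSSM in Cy3 (1.10 to 2.22) and -1.16 with PSSM in Cy5 (-1.80 to -0.83), a difference of -2.63 ± 0.71. Mouse Mif AK015344_1183 had 0.04 ± 0.37 (n = 7, adjusted p = 0.88, limma), from -0.35 in horse 54 to 0.78 in horse 44. The dye difference of this probe was 0.35 ± 0.23, and that of the equine probe had the same sign.

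**Figure D4:**
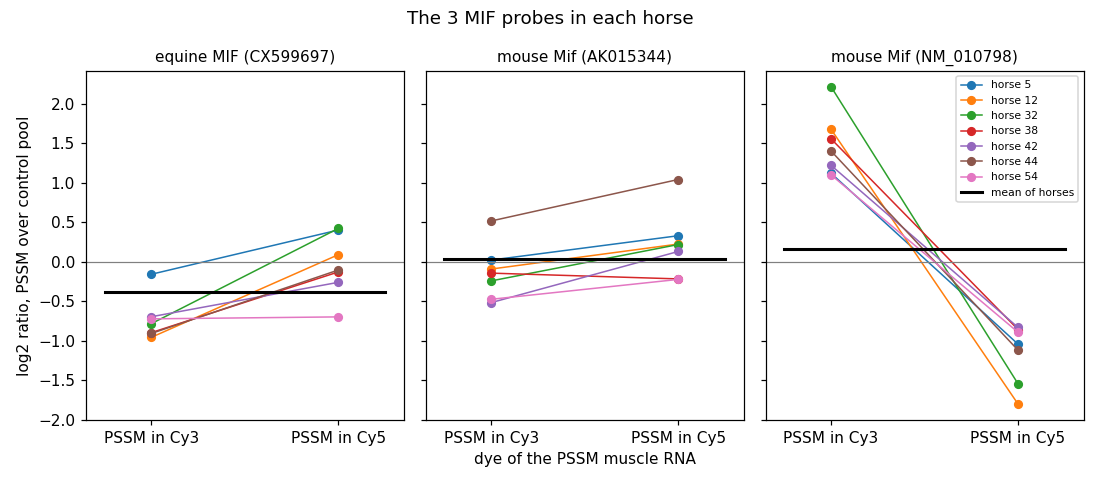
Log2 ratio of PSSM muscle over the control pool for the equine MIF probe and both mouse Mif probes, with a line for each of the 7 horses from its Cy3 to its Cy5 microarray and a black bar at the mean over horses. The equine probe rises from -0.73 to -0.04 on average, and mouse probe NM_010798 falls from 1.47 to -1.16.

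Over the mouse members, a dye effect passed in 7 of the 20 that could be tested, against 38.5% of all mouse probes tested for it (17.4% higher with PSSM in Cy5). PSSM in Cy3 read higher in 5 of them, the Mif probe NM_010798_481, Ccr3 (-1.03 ± 0.41), Xcl1 (-0.90 ± 0.82), Cxcl14 (-0.88 ± 0.70) and Ccl24 (-0.36 ± 0.20), and lower in 2, Xcr1 (0.59 ± 0.22) and the Mif probe AK015344_1183. Cxcl14, Ccl24 and Xcr1 are named here after their values were seen. The orientation means had opposite signs in 12 of the 20 mouse members and in 3 of the 5 equine ones. The share over all probes was not counted, so these counts cannot be read as particular to the members. Microarrays of the 2 orientations did not overlap in 2 of the 20 mouse members, against 11.7% of all mouse probes tested for a dye effect.

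**Figure D5:**
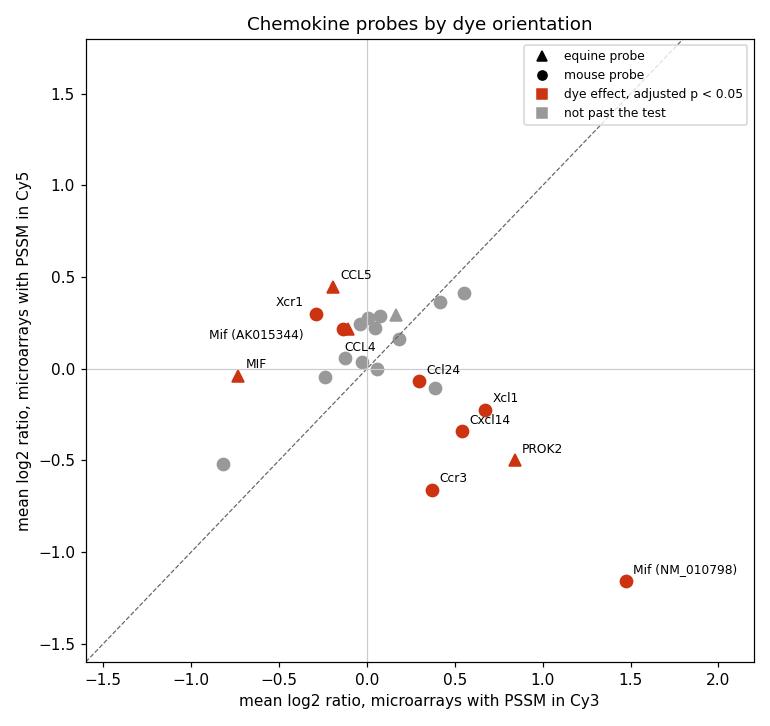
Mean log2 ratio with PSSM in Cy5 (vertical axis) against the mean with PSSM in Cy3 (horizontal axis) for the 25 chemokine probes tested for a dye effect, triangles for equine and circles for mouse probes. Red marks 11 probes with a dye effect at an adjusted p under 0.05; on the dashed line both orientations are equal. PROK2 and Mif NM_010798 lie far below the line, and MIF lies above it.

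Genes around the chemokines were counted in the same equine fit, in which 24.4% of all tested probes passed, 19.9% lower and 4.43% higher. The median over all tested equine probes was -0.08. Of the equine probes with values from all horses, 22.5% had a single sign in every horse. Of 12 tested genes of signaling below chemokine receptors, 1 was up-regulated and 4 were down-regulated, and the median was -0.12. GSK3B, a kinase that phosphorylates glycogen synthase, rose in all 7 horses (0.62 ± 0.23, adjusted p = 0.0023, limma). PRKCA, a protein kinase C (-1.44 ± 0.68), and PLCG2, a phospholipase C (-0.79 ± 0.24), fell in all 7. So did NFKBIB, an inhibitor of NF-κB (-0.76 ± 0.29), and STAT3, a transcription factor of cytokine receptors (-0.39 ± 0.19). The adjusted p of these 4 was 0.0016 to 0.015 (limma). The study's quantitative RT-PCR gave PRKCA and NFKBIB as lower and PLCG2 as not significantly changed. IL8, which encodes the CXC ligand CXCL8 and has its older symbol on this microarray, had values from 4 horses, with a mean of 0.37 ± 0.48 and the control at its lowest level in 4 values.

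Of 5 tested genes of leukocyte adhesion, 4 were up-regulated, against 4.43% of all tested equine probes, and the median was 0.91. The genes were listed with earlier results of these data known, so this contrast is no independent evidence. CD44, a hyaluronan receptor (1.21 ± 1.07), ITGB1, an integrin chain of many cell types (0.91 ± 0.40), and ITGB2, an integrin chain of leukocytes (0.77 ± 0.62), were higher in 7 of 7 horses. VCAM1, the endothelial partner of lymphocyte integrins (0.99 ± 0.74), was higher in 6 of 7. The adjusted p lay between 0.0023 and 0.029 (limma, n = 7). With the methods' t-test as computed here, 1 of the 5 passed, whereas the study's own list holds all 5 as higher. The study's quantitative RT-PCR gave CD44 and VCAM1 as higher but ITGB1 as lower, the opposite of its microarray ratio.

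Of 9 tested genes that induce chemokines, IL18 was up-regulated and RELB down-regulated, and the median was 0.02. Over all tested equine probes, 24.4% passed in either direction. IL18, a cytokine of the inflammasome, had a ratio of 4.68 (2.23 ± 1.96, n = 6, adjusted p = 0.038, limma), higher in 5 horses and equal to the pool in 1, with the control at its lowest level in 6 values. The 2 calls of this list fell to 1 without such values, without horse 5, 12 or 44, or with the methods' t-test, and to 0 over probes with values on all 14 microarrays. RELB, an NF-κB subunit, was at -0.41 ± 0.18 (n = 7, adjusted p = 0.010, limma). IL6 was at -0.14 ± 0.13 and TNF at -0.08 ± 0.58 (n = 7 each, adjusted p = 0.25 and 0.80, limma), and IL1A had no value.

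Of 13 leukocyte markers, 11 were tested, 1 (ITGB2) was up-regulated, against 4.43% of all tested equine probes, and the median was 0.39. The median of these markers by horse was highest in horse 44, at 0.78, and in the other 6 horses it lay between -0.19 and 0.48. Horse 44 was also highest in the 3 tested equine CC ligands. On the tested mouse probes of CC ligands, it was highest in Ccl8 and lowest in Ccl17 and Ccl25. The macrophage markers CD14 and CSF1R were at -0.08 ± 0.33 and 0.12 ± 0.53 (n = 7 each). Of 8 fiber markers, ATP2A1, the calcium pump of fast fibers, was down-regulated (-0.68 ± 0.44, n = 7, adjusted p = 0.011, limma), and the median was -0.12. Over all tested equine probes, 19.9% were down-regulated, with a median of -0.08. The part of leukocyte or fiber content in the chemokine ratios was not tested.

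Of the mouse probes for partners of chemokine receptors, 16 had enough horses and none passed (limma). Rac2 (0.52 ± 0.36) and Rap1b (0.76 ± 0.59), small GTPases of cell movement, were higher than the pool in all 7 horses, and Gnai2 (-0.35 ± 0.21), the inhibitory G protein chain that chemokine receptors use, was lower in all 7. Their adjusted p lay between 0.077 and 0.087 (limma). A single sign in every horse was found in 10.1% of all mouse probes with values from all 7 horses.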

How the data were processed

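The authors scanned the microarrays, quantified the spots with GenePix Pro, and applied a Lowess normalization to spots and microarrays in GeneSpring. The table they deposited holds the Cy5 to Cy3 ratio as its natural logarithm, with 1 value per probe and microarray and ends at ratios of 0.01 and 100. Background correction and the rule behind empty cells are not given in the sources used here. The labelled dyes gave the direction, every value was written as log2 of PSSM over control, and the 2 microarrays of a horse were averaged, so the dye swap counts as 1 replicate. The number of horses and the use of 1 control pool limit the precision.

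Means of probes that had values in 5 or more horses were set against 0 by lmFit and eBayes (limma 3.58.1, R 4.3.3), with Benjamini-Hochberg adjustment over 361 equine and 13067 mouse probes separately, and by flipping the signs of the horses in all ways (exact, two-sided). For the dye effect, limma was fitted to each horse's difference between orientations. The script was tested on simulated data. The methods' t-test, robust limma, a block for the horse (statmod 1.5.0), single orientations, centring, other filters and leaving out horses were the alternatives. Tables were made in Python 3.11.15 (numpy 2.4.6, pandas 2.3.3, scipy 1.17.1) and drawn by matplotlib 3.10.9.

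Members, gene lists and the rule for naming were chosen with earlier results of these data known. All equine members are named, and of the mouse members those of the same genes, those of Cxcl12, Ccl2, Cx3cl1 and Cx3cr1, and the 5 highest and 5 lowest tested means. Other mouse members are named for the presence of values, their dye effect or (Ccl19) their receptor, after the values were seen. The related lists name called genes, at most 4, and some others after their values were seen. The count of repeated values was also added after the values were seen. Probe sequences were not used here.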

Additional observations from a re-analysis of the deposited data

Results flagged for a closer look

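In 42 member probes with values from 4 to 7 horses, the gap between the most extreme horse and its nearest neighbor was compared with Dixon's critical value, and 2 probes exceeded it. Chance alone gives this in about 1 in 20 groups. Equine CCR2 was at 1.14 in horse 44, whereas the other 5 horses lay between -0.06 and 0.32; the value came from 1 microarray and had the control at its lowest level, so it is read as a lower bound. Mouse Ccr7 was at 0.75 in horse 5, whereas the other 6 horses lay between -1.38 and -0.53; both microarrays of horse 5 lay above the pool, at 0.93 and 0.56. No explanation for either horse was tested.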

How the results depend on the processing

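Of 374 alternative values for the tested members named, 338 kept direction and side of the threshold, 14 turned sign, 12 came to pass and 10 no longer passed. The sign could not turn with the methods' t-test, robust limma, other filters or adjustment over all probes, which keep the same means. A mean also stayed where the probe had none of the values left out. The 338 therefore does not measure robustness. The count of equine members called, 1 (MIF), became 0 with the methods' t-test (adjusted p = 0.051), the arithmetic mean of linear ratios (0.058) and adjustment over all probes (0.098), became 2 on the Cy3 microarrays alone, and ran from 0 to 1 when a horse was left out. On the Cy5 microarrays or with centring on equine probes MIF no longer passed (-0.04 and -0.26). The count of mouse members called, 0, became 2 (Ccr7 and Ppbp) when horse was a block and dye a term, 7 on Cy3 microarrays alone, and 1 each on Cy5 microarrays, with equine centring and with the arithmetic mean, and ran from 0 to 1 when a horse was left out. The dye effect in mouse members, 7, ran from 4 (without horse 12 or 32) to 10 (without horse 54).

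On Cy3 microarrays alone, CCL4 turned to -0.11, CCL5 to -0.19, Ccr3 to 0.37 and Mif AK015344 to -0.13. On Cy5 microarrays alone, PROK2 turned to -0.50, Xcl1 to -0.22 and Mif NM_010798 to -1.16. Without horse 44, CCL4 turned to -0.0017, CCL5 to -0.016, Ccr3 to 0.0385 and Mif AK015344 to -0.0825. Ccl1 turned to 0.0225 with equine centring. Ccl17 turned to -0.0355 with the block and to -0.0377 without values at the lowest control level. The causes were not tested.

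No paired analysis was possible because the replicate numbers mark the dye orientations of a horse; both were averaged per horse, and the block for the horse stands in the alternatives above. Counts of called genes around the chemokines also moved: receptor signaling from 5 to 9 on Cy3 microarrays, adhesion from 4 to 1 with the methods' t-test, inducers from 2 to 0 over probes with values on all 14 microarrays and to 4 on Cy5 microarrays, and leukocyte markers from 1 to 0 without horse 38 and to 6 on Cy3 microarrays. Values at the lowest control level were found in CXCR4, CCR2, CCL3 and CXCL2 alone of the equine members, and repeated values in these, CCL5 and CCL13.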
